A study of Mus musculus with 8 samples.

Results

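The conjugation enzymes described here are the UDP-glucuronosyltransferases (Ugt), glutathione S-transferases (Gst), microsomal glutathione S-transferases (Mgst) and cytosolic sulfotransferases (Sult) of the mouse main olfactory epithelium. They were chosen by symbol alone: every row of the deposited polysome table whose name follows the pattern of one of these families, pseudogene symbols excepted. This gave 54 of the 21765 genes in the table, made up of 16 Ugt, 20 Gst, 3 Mgst and 15 Sult genes. The zeta-class enzyme Gstz1 lies outside the pattern and is treated with the neighbouring pathways.

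These enzymes carry out the second phase of xenobiotic metabolism, in which a polar group is attached to a small molecule so that it can be excreted. Ugt enzymes sit in the endoplasmic reticulum and transfer glucuronic acid from UDP-glucuronic acid, Gst and Mgst enzymes use glutathione, and Sult enzymes transfer sulfate from the donor PAPS. The olfactory epithelium faces inhaled chemicals, and its sustentacular (supporting) cells and Bowman's glands are known for high levels of such enzymes, which can also act on odorants. Ugt2a1 was long known as an olfactory Ugt.

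RNA from polysomes, which are mRNAs carrying several ribosomes, was sequenced in 8 libraries from the main olfactory epithelium of mice. Wild-type (WT) mice were Mex3a flox/flox or Mex3a flox/+ with no Cre, and conditional knockout (cKO) mice were Mex3a flox/flox with Cre, so that all groups carried at least 1 floxed allele of Mex3a, which encodes an RNA-binding protein. All tissue was exposed to cycloheximide (100 µg/mL) at dissection, which halts ribosomes on the mRNA. Lysates were separated on sucrose gradients, and RNA was pooled from fractions 27 to 34 (early, lighter polysomes) or 35 to 42 (late, heavier polysomes). WT early, WT late, cKO early and cKO late held 2 libraries each, and the early and late library of a genotype and number share a lysate name, so the libraries come from 4 lysates. Ages and sexes are not given in the labels, and no label says that the lysates came from separate animals, so p-values measure the spread between these samples, which may be technical. The whole epithelium was used, so in bulk RNA fewer cells of a type and less RNA per cell cannot be told apart.

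Levels are in transcripts per 1000000 (TPM), a unit that corrects for gene length and sums to the same total in each library. Whole reads inferred from the TPM steps came to 7776792 to 12771079 per library, lowest in cKO late replicate 2, and replicates of a group correlated at 0.978 to 0.985 across genes. Mex3a stood at 93.2 to 116 TPM in the 4 WT libraries and at 11.1 to 19.8 TPM in the 4 cKO libraries. The genotype tag of WT early replicate 2 reads cKO, although its title says WT. It held 116 TPM of Mex3a and was kept as WT, and the main counts without it are given beside those with it. The epithelium's own markers were present in every library: Omp, of mature olfactory neurons, at 2439 to 5393 TPM and Cyp2g1, of sustentacular cells, at 697 to 3419 TPM. Tests were made with limma on log2(scaled TPM + 1) over the 16097 genes whose deposited TPM averaged 1 or more, and a gene was called at a Benjamini-Hochberg adjusted p under 0.05. Changes on this scale understate those of genes at low levels.

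Of the 54 genes, 33 passed that filter: 5 Ugt, 16 Gst, all 3 Mgst and 9 Sult. Among the other 21, Ugt2b37, Sult2a2, Sult2a4 and Sult2a8 were listed at 0 in all 8 libraries. The remaining 17 reached at most 2.47 TPM (Gstp2 in cKO late replicate 2) and at most 10 inferred reads in any library, and 6 of them were above 0 in 1 library only. The untested Ugt genes included the whole Ugt2b branch in the table (Ugt2b34 to Ugt2b38), whose highest value was 0.501 TPM (Ugt2b36). Levels in these genes are too low for a comparison at this depth.

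The members' sequences matter for reading the values in 2 places. Ugt2a1 (minus strand, chr5:87459490-87490871, GRCm38) and Ugt2a2 (minus strand, chr5:87459490-87482260) use different first exons and the same downstream exons. Their coding sequences are 1584 nt each, and the last 869 nt (54.9%) are identical. The stretch from coding base 656 to base 745, taken from GENCODE M21 transcripts on GRCm38, is shown because it spans the junction, with bases that differ between the pair in capitals.
Ugt2a1: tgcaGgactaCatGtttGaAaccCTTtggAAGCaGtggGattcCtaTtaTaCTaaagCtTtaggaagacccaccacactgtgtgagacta
Ugt2a2: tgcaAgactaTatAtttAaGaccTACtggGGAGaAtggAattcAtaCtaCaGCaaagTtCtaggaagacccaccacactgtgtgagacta
The 2 stretches differ at 21 bases, all before the shared run. Between 68.9% and 69.7% of the exon bases of these 2 genes lie in both, and 50.3% to 60.6% in the Ugt1a genes, so reads there could be given to either gene and the split within each locus is uncertain. How reads were counted per gene is not given in the sources used here. Gsta1 and Gsta2 share no exon bases but are 98.0% identical over their aligned coding bases, and Gstp1 and Gstp2 98.1%, so the split of reads within these pairs is uncertain too.

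The second place is the Mu-class Gst cluster on chromosome 3, whose genes lie side by side between 107895821 and 108044894 (GRCm38). Gstm1, Gstm2, Gstm4, Gstm6 and Gstm7 each have a coding sequence of 654 nt (218 residues) and Gstm5 has 672 nt. Over the aligned coding bases, Gstm1 is 85.9% identical to Gstm2, 82.6% to Gstm7, 80.1% to Gstm4 and 71.6% to Gstm5. The first 90 coding bases of 4 of them, from the same source, are shown because these close paralogs differed in their place on the gradient. Capitals mark bases that differ from Gstm1.
Gstm1: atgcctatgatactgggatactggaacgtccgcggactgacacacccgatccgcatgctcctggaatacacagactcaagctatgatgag
Gstm2: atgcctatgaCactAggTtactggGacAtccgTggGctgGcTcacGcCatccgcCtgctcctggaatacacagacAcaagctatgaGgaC
Gstm4: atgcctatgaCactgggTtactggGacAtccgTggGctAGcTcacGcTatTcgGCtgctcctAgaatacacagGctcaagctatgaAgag
Gstm7: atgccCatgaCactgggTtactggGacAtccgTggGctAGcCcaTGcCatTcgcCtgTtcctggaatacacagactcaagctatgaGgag
Gstm2 differs from Gstm1 at 15 of these bases, and Gstm4 and Gstm7 at 17 each.

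Conjugation enzyme mRNAs took 0.407% to 0.450% of the TPM in the early libraries and 0.585% to 0.649% in the late ones, with no overlap. Per family, the summed level was 115 to 210.5 TPM early and 324 to 406 TPM late for Ugt, 2096 to 2378 and 3409 to 3958 for Gst, 818 to 929 and 1481 to 1655 for Sult, and 962 to 1078 and 528 to 607 for Mgst. The Ugt, Gst and Sult sums were thus higher in every late library than in any early one, and the Mgst sum was lower in every late library. The most abundant gene, Gstm1, held 19.8% to 33.9% of the members' TPM, and the 10 most abundant held 86.0% to 88.7%. The plot of levels by library shows the genes whose values follow.

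**Figure D1:**
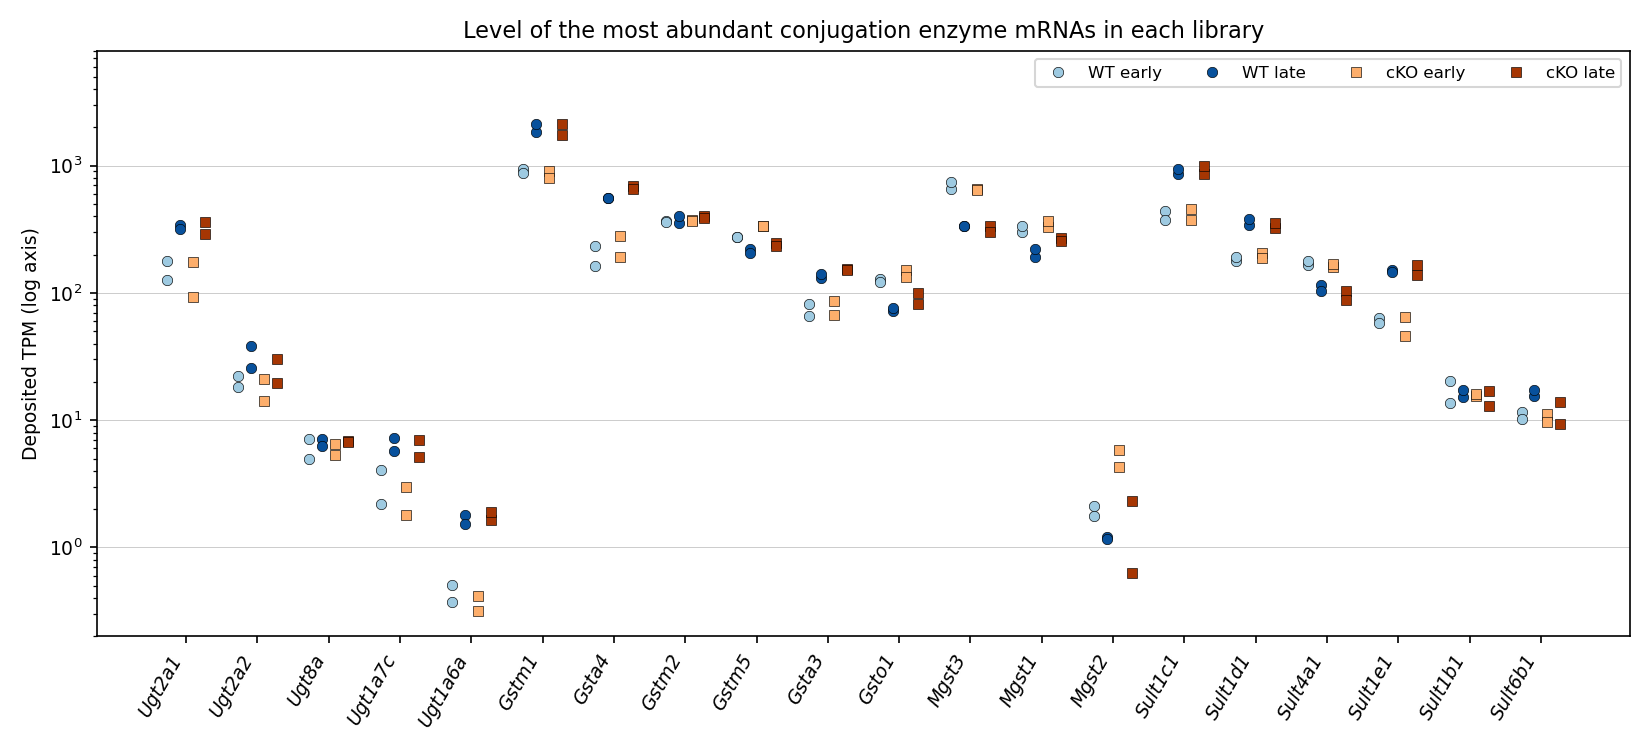
Deposited TPM (log axis) of the most abundant conjugation enzyme mRNAs of each family in each of the 8 libraries, 1 point per library, with circles for WT, squares for cKO, light colours for early and dark colours for late polysomes. Gstm1, Gsta4, Sult1c1 and Ugt2a1 have all 4 late libraries above all 4 early ones, while Mgst3 and Sult4a1 have them below.

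Ugt2a1, the tested alpha-class Gst genes, Gstm1, Sult1c1, Sult1d1, Sult1e1 and Sult1a1 took a higher share of the late libraries than of the early ones. Mgst mRNA took a lower share. Amounts of mRNA per pool were not measured. On average over genotypes 24 of the 33 tested members were called, 15 higher in late (34.3% of all tested genes were called higher) and 9 lower (34.6% of all tested genes). In either direction 68.9% of all tested genes were called, so the members' total of 24 lies near the share of the whole table. Their median change was 0.29 against -0.01 for all genes tested. In all 4 lysates 15 members were higher in late and in all 4 lysates 10 were lower, while 8 had mixed signs. The same counts were not made over all genes, so such agreement is not shown to be particular to the members. Without WT early replicate 2 the total was 21 members, 13 higher and 8 lower, and 62.0% of all genes were called in that fit. The plot of changes by lysate shows each of the 33.

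**Figure D2:**
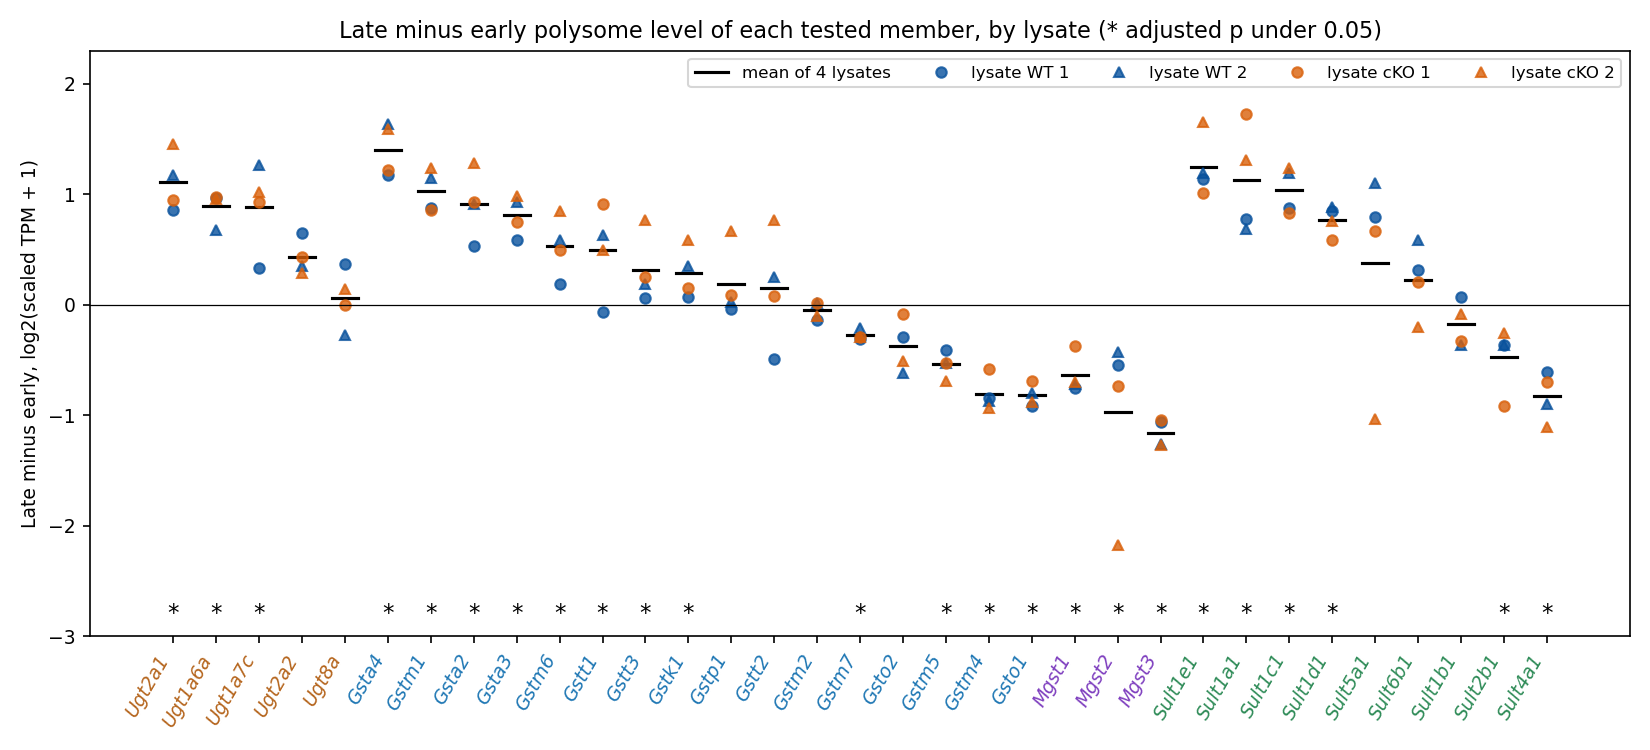
Late minus early difference of log2(scaled TPM + 1) for each of the 33 tested members in each of the 4 lysates (points), with the mean of the lysates (bar), ordered within family, and an asterisk where the adjusted p was under 0.05. The means run from 1.40 (Gsta4) to -1.16 (Mgst3), and 1 lysate, cKO 2, stands apart for Mgst2 and Sult5a1.

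Among the Ugt genes, 3 of 5 were called higher in late polysomes (34.3% of all tested genes) and none was called lower. The fitted change was above 0 in all 5. Ugt2a1, the olfactory glucuronosyltransferase, stood at 178 and 127 (WT) and 174 and 93.0 TPM (cKO) in early polysomes, and 343 and 315 (WT) and 358 and 289 TPM (cKO) in late ones. All late libraries were above all early ones, and the late level was 1.82 to 2.77 times the early level of the same lysate. The fitted change was 1.11 (SE 0.19, adjusted p = 0.000954). Ugt2a2, which shares its downstream exons, stood at 22.4 and 18.2 (WT) and 21.1 and 14.2 TPM (cKO) in early polysomes, and 38.0 and 25.7 (WT) and 30.5 and 19.7 TPM (cKO) in late ones. It was higher in late in each of the 4 lysates, but the groups overlapped and the change of 0.43 (SE 0.19) did not pass (adjusted p = 0.0750). In 6 of its 14 alternative analyses, among them pairing by lysate, it passed (adjusted p = 0.00590 with the replicate block). Ugt1a7c, of the shared Ugt1a locus, was at 4.07 and 2.21 (WT) and 3.00 and 1.80 TPM (cKO) in early polysomes, and 5.74 and 7.30 (WT) and 6.96 and 5.18 TPM (cKO) in late ones. Every late value exceeded every early one, with a change of 0.89 (SE 0.20, adjusted p = 0.00435). Ugt1a6a, known for conjugating phenols, was low throughout, at 0.375 and 0.504 (WT) and 0.318 and 0.414 TPM (cKO) in early polysomes, and 1.79 and 1.53 (WT) and 1.65 and 1.91 TPM (cKO) in late ones. Its 5 to 25 inferred reads per library gave late over early ratios of 2.77 to 4.90. The change was 0.90 (SE 0.18, adjusted p = 0.00249) with a pseudocount of 1 and 1.76 with a pseudocount of 0.1. Ugt8a, which adds galactose to ceramide rather than glucuronic acid to xenobiotics, was at 4.99 and 7.11 (WT) and 6.54 and 5.32 TPM (cKO) in early polysomes, and 7.16 and 6.24 (WT) and 6.90 and 6.70 TPM (cKO) in late ones. Its groups overlapped, and the change was 0.06 (SE 0.14, adjusted p = 0.728).

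Of the 16 soluble Gst genes tested, 8 were called higher in late and 4 lower. Gstm1, a Mu-class enzyme with a broad range of electrophile substrates, was the most abundant member on average, at 934 and 882 (WT) and 902 and 807 TPM (cKO) in early polysomes, and 1825 and 2138 (WT) and 1732 and 2140.1 TPM (cKO) in late ones. Late libraries lay above early ones in both genotypes, with a change of 1.03 (SE 0.11, adjusted p = 6.04e-05). Gsta4, an alpha-class enzyme known for conjugating the lipid peroxidation product 4-hydroxynonenal, had the highest change of the 33 members. It was at 234 and 163 (WT) and 280.5 and 193 TPM (cKO) in early polysomes, and 562 and 553 (WT) and 692 and 655 TPM (cKO) in late ones. The late level was 2.26 to 3.11 times the early level of the lysate, and the change was 1.40 (SE 0.14, adjusted p = 5.57e-05). Its change was 1.40 (SE 0.20) in WT and likewise 1.40 (SE 0.20) in cKO. Gsta3, another alpha-class enzyme, was at 82.0 and 66.5 (WT) and 85.7 and 67.7 TPM (cKO) in early polysomes, and 131 and 139.6 (WT) and 154 and 152 TPM (cKO) in late ones. The early and late libraries did not overlap, with a change of 0.81 (SE 0.09, adjusted p = 0.000103). Gsta2, of the same class, ran from 4.53 to 10.1 TPM in early and from 13.9 to 18.8 TPM in late libraries, with a change of 0.92 (SE 0.20, adjusted p = 0.00367).

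The other tested Mu-class genes were mixed, with Gstm6 called higher in late like Gstm1 and the rest lower or not called. Gstm2 was at 367 and 362 (WT) and 372 and 367 TPM (cKO) in early polysomes, and 356 and 399 (WT) and 399 and 385 TPM (cKO) in late ones. Early and late libraries overlapped, and the change was -0.05 (SE 0.07, adjusted p = 0.556), with a sign that depended on scaling: it was 0.07 with TPM as deposited and 0.27 with quantile normalization (adjusted p = 0.0106). Gstm5 was at 278 and 274 (WT) and 337 and 335 TPM (cKO) in early polysomes, and 222 and 208 (WT) and 247 and 234 TPM (cKO) in late ones. Every late library was below every early one, and Gstm5 fell by 0.54 (SE 0.07, adjusted p = 0.000179). Gstm4 ran from 44.5 to 57.3 TPM in early and from 28.8 to 33.9 TPM in late libraries, and Gstm4 fell by 0.80 (SE 0.08, adjusted p = 5.15e-05). Gstm7 fell by 0.27 (SE 0.08, adjusted p = 0.0172), a call lost with TPM as deposited (-0.16, adjusted p = 0.124) and without WT early replicate 1, WT late replicate 2, cKO early replicate 1 or cKO late replicate 2. Gstm6, at 2.71 to 9.66 TPM, changed by 0.53 (SE 0.17, adjusted p = 0.0197). Within one cluster of equal or nearly equal coding length, 2 of the 6 tested genes were thus called higher in late, 3 lower and 1 neither.

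Gsto1, an omega-class enzyme with thioltransferase and dehydroascorbate reductase activity, moved like the lower Mu-class genes. It was at 128 and 122 (WT) and 153 and 134 TPM (cKO) in early polysomes, and 71.5 and 76.6 (WT) and 99.7 and 81.8 TPM (cKO) in late ones. Late libraries did not overlap early ones, and Gsto1 fell by 0.82 (SE 0.09, adjusted p = 7.09e-05). The theta-class genes Gstt1 and Gstt3 and the kappa-class Gstk1 were called higher in late, by 0.50, 0.32 and 0.29. Gstk1 lost its call in 6 of 14 alternatives and Gstt1 in 4, while Gstt3 kept its call in all 14. Gstp1, Gstt2 and Gsto2 were not called, with changes of 0.19, 0.15 and -0.38.

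All 3 Mgst genes, which encode small membrane proteins unrelated in fold to the soluble Gst enzymes, were lower in late polysomes. Mgst3, a glutathione-dependent peroxidase, stood at 657 and 741 (WT) and 651 and 644 TPM (cKO) in early polysomes, and 335 and 338 (WT) and 334 and 299 TPM (cKO) in late ones. The late level was 0.413 to 0.484 of the early level of the lysate, and Mgst3 fell by 1.16 (SE 0.08, adjusted p = 2.03e-05). Mgst1, of the endoplasmic reticulum and outer mitochondrial membrane, was at 303 and 336 (WT) and 332 and 368 TPM (cKO) in early polysomes, and 191 and 223 (WT) and 271 and 255 TPM (cKO) in late ones. The 2 groups of 4 libraries did not overlap, and Mgst1 fell by 0.63 (SE 0.09, adjusted p = 0.000250). Mgst2, which can make leukotriene C4, was low, at 2.10 and 1.77 (WT) and 4.28 and 5.80 TPM (cKO) in early polysomes, and 1.20 and 1.17 (WT) and 2.32 and 0.630 TPM (cKO) in late ones. Its inferred reads ran from 1 to 15 per library. The late value was below the early value in each lysate, although cKO late replicate 1 lay above both WT early libraries, and Mgst2 fell by 0.97 (SE 0.24, adjusted p = 0.00696).

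Of the 9 sulfotransferases tested, 4 were called higher in late polysomes and 2 lower, and the 4 were all of the Sult1 family. The fitted change was above 0 in 6 of the 9. Sult1c1, the most abundant of them, was at 439 and 375 (WT) and 456 and 375 TPM (cKO) in early polysomes, and 860 and 938 (WT) and 862 and 996 TPM (cKO) in late ones. The late level was 1.78 to 2.36 times the early level of the lysate, with a change of 1.04 (SE 0.10, adjusted p = 4.03e-05). Sult1e1, the estrogen sulfotransferase, was at 64.0 and 58.2 (WT) and 64.4 and 45.8 TPM (cKO) in early polysomes, and 151 and 147 (WT) and 138 and 165 TPM (cKO) in late ones. Every late library had more than every early one, and the change was 1.25 (SE 0.11, adjusted p = 2.93e-05). Sult1d1, which acts on phenols and catecholamines, was at 178 and 190.3 (WT) and 204 and 187 TPM (cKO) in early polysomes, and 342 and 384 (WT) and 325 and 357 TPM (cKO) in late ones. It rose by 0.77 (SE 0.07, adjusted p = 4.21e-05) with no overlap. Sult1a1, a phenol sulfotransferase, ran from 3.99 to 6.08 TPM in early and from 10.4 to 16.3 TPM in late libraries, with a change of 1.13 (SE 0.12, adjusted p = 6.19e-05).

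Other sulfotransferases were called lower in late or were not called. Sult1b1, which acts on thyroid hormones, was at 13.5 and 20.5 (WT) and 15.6 and 16.0 TPM (cKO) in early polysomes, and 15.2 and 17.2 (WT) and 13.0 and 17.0 TPM (cKO) in late ones. Its libraries overlapped, and the change was -0.17 (SE 0.14, adjusted p = 0.294). Sult6b1 was at 11.5 and 10.2 (WT) and 11.2 and 9.73 TPM (cKO) in early polysomes, and 15.5 and 17.2 (WT) and 13.9 and 9.36 TPM (cKO) in late ones. Its change of 0.23 (SE 0.14) did not pass (adjusted p = 0.168), and without cKO late replicate 2, its lowest library, it was 0.37 (adjusted p = 0.0185). Sult4a1, a sulfotransferase-like protein of neurons, was at 167 and 178 (WT) and 159.5 and 169 TPM (cKO) in early polysomes, and 116 and 104 (WT) and 104 and 87.3 TPM (cKO) in late ones. All late libraries were below all early ones, and Sult4a1 fell by 0.83 (SE 0.09, adjusted p = 6.76e-05). Sult2b1, which acts on cholesterol and other hydroxysteroids, fell by 0.47 (SE 0.15, adjusted p = 0.0228), a call lost in 5 of 14 alternatives. Sult5a1, at 0.320 to 3.75 TPM, was not called (0.38, SE 0.35, adjusted p = 0.349).

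Longer coding sequences hold more ribosomes, so each change was set beside those of genes of like length. Across the 14664 tested genes with a coding length in GENCODE M21, the late minus early change correlated with coding length at a Spearman rho of 0.636, and across the 33 members at 0.371, as a description over genes, which are not replicates. Across the members the GC percentage of the coding sequence correlated more strongly, at -0.447, and the length of the whole transcript less, at 0.15. Within the 16 tested Gst genes alone the GC correlation was -0.085. It was not computed over all genes. Coding length was 441 to 465 nt in Mgst genes, 630 to 744 nt in Gst, 852 to 1014 nt in Sult and 1584 to 1623 nt in Ugt. The median change of genes within 10% of a member's length ran from -1.04 at the Mgst lengths to 0.25 at the Ugt lengths. Beside those genes, 22 of the 33 members lay above the upper quartile, 10 between the quartiles and 1 below, namely Sult4a1. Above the upper quartile were 12 of 16 Gst, 6 of 9 Sult, 3 of 5 Ugt and 1 of 3 Mgst genes. A place above it is a description, not a call. Gstm2, Gstp1, Gstt2, Sult5a1 and Sult6b1 lay there without a call, and Gstm7 and Mgst1 lay there although called lower in late.

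**Figure D3:**
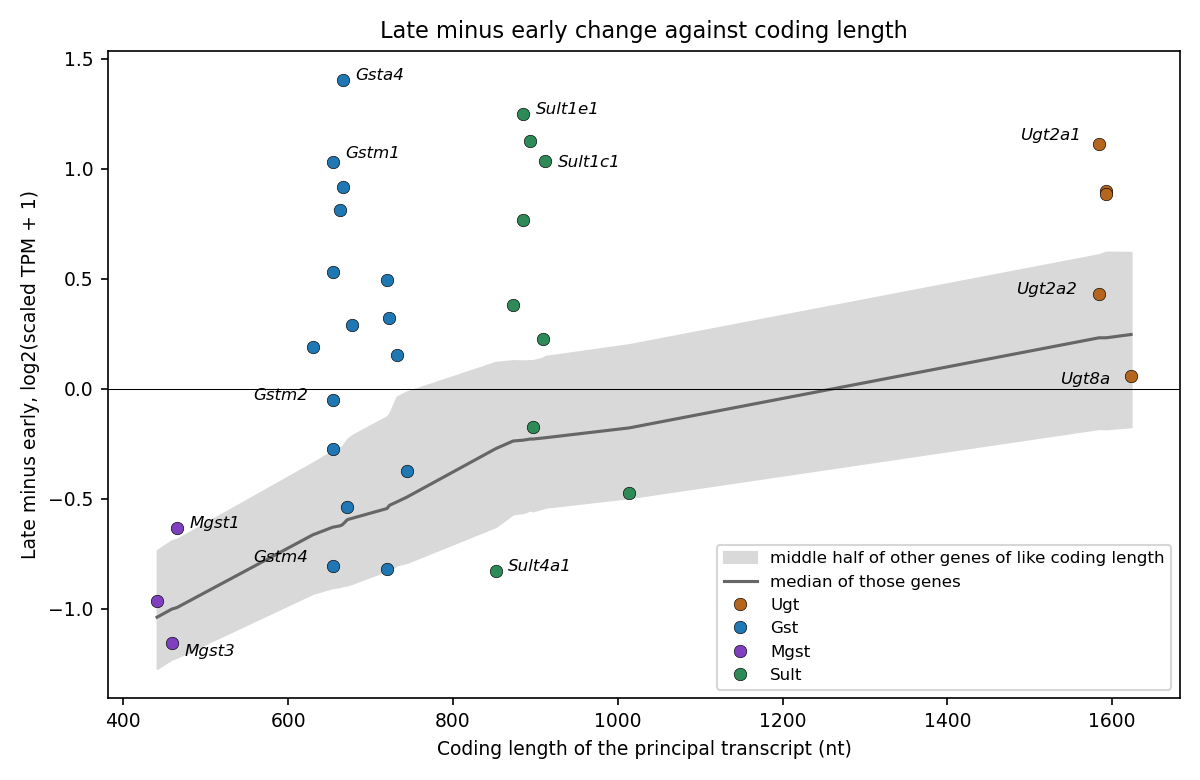
Late minus early change of log2(scaled TPM + 1) of each tested member (points, coloured by family) against the coding length of its principal transcript in nt, with the median (line) and the interquartile range (grey band) of genes within 10% of each member's length, joined between members. Of the 33 members 22 lie above the band, among them Gsta4 and Gstm1, while Mgst3 and Gstm4 lie in it and Sult4a1 below it.

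The 2 ends of the length range show what the comparison adds. Mgst3 fell by 1.16, but genes of its length had a median of -1.002, and 32.8% of them lay lower. Ugt2a1 changed by 1.11 where genes of its length had a median of 0.23, and 96.1% of them lay lower. Gsta4 exceeded 100% of the 903 genes of its length, whose median was -0.62, and Gstm1 exceeded 99.9% of 872. Sult1e1, Sult1a1 and Sult1c1 exceeded 99.6%, 99.2% and 98.6% of theirs. Within the Gst family, coding length and change correlated at -0.16 over 16 genes, a description with no test.

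Neighbouring steps of the 3 conjugation routes were mixed, by lists of known genes. For glutathione synthesis and turnover 5 of 12 tested genes were called higher in late and 4 lower, with a median of 0.08. Its most abundant genes were Gsr, the glutathione reductase (-0.39), Ggt7, of the gamma-glutamyltransferase family (1.10), and Gclm, the modifier subunit of the rate-limiting ligase (-0.31), and all 3 passed. Of 6 genes for UDP-glucuronic acid supply and deconjugation 2 were called higher and 2 lower. Ugdh, which makes UDP-glucuronic acid, ran from 93.3 to 127 TPM early and 223 to 254 TPM late and rose by 1.01 (SE 0.11, adjusted p = 7.46e-05), while the nucleoside sugar hydrolase Nudt14 fell by 1.03 and the transporter-family gene Slc35b1 by 0.67. Of 7 genes for PAPS supply and sulfate removal 3 were called higher and 2 lower. The PAPS synthases Papss2 (53.2 to 64.1 TPM early, 132 to 148 late) and Papss1 rose by 1.09 and 0.45, and Bpnt1, a phosphatase for the PAP left after transfer, by 0.68.

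Of 12 genes of the NRF2 pathway, which induces many Gst genes, 7 were called higher in late and 4 lower. The quinone reductase Nqo1 rose by 1.01 (SE 0.07, adjusted p = 1.88e-05) and the thioredoxin reductase Txnrd1 by 0.28, while the ligase subunit Cul3 changed by 0.16 (adjusted p = 0.05002) and was not called. Among 6 tested efflux transporters of conjugates 4 were called higher in late and none lower, with a median of 0.52. Abcc1 at 1.00 and Abcc4 at 0.58 passed and Abcc5 at 0.22 did not. Other conjugating enzymes had 1 of 12 genes called higher, the N-methyltransferase Inmt (0.62), and 4 called lower, among them Gstz1 (-0.59). Of 7 xenobiotic receptor genes and partners 2 were called higher, among them Arnt (0.53), and 3 lower, among them Rxra (-0.34). Over all genes 34.3% were called higher and 34.6% lower, and no list was tested against them.

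Markers of the cells that could carry these mRNAs moved along the gradient as well. Of 8 sustentacular markers 7 were higher in late and 1, Cbr2, was lower, with a median of 1.24, and their summed level was 7098 to 8803 TPM in early and 13540 to 15500 TPM in late libraries. Of 7 Bowman's gland markers 4 were higher and 2 lower, with sums of 4188 to 7927 TPM early and 10480 to 17150 TPM late. Most of that sum was Bpifb9b, at 2858.5 to 14905 TPM. Of 7 mature neuron markers 5 were higher and 2, Omp and Gng13, lower, and their sum was 6899 to 8746 TPM early and 5234 to 6312 TPM late. Omp alone held 3760 to 5393 TPM early and 2439 to 2978 TPM late, so the sum fell although most of these markers were higher. These marker counts are of called genes. Over all genes tested 34.3% were called higher in late and 34.6% lower, and no marker list was tested against them. No tissue marker list was at 0 in any library. The part of cell type in the members' changes was not tested.

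The deletion of Mex3a was compared with WT in each fraction and on lysate means (early and late averaged), 2 cKO against 2 WT lysates. Mex3a was 97.4 and 116 (WT) and 13.9 and 19.8 TPM (cKO) in early polysomes, and 93.2 and 95.6 (WT) and 11.1 and 13.8 TPM (cKO) in late ones, with no overlap. Mex3a fell by 2.55 in early (SE 0.18, adjusted p = 0.00457), fell by 2.79 in late (adjusted p = 0.00282) and fell by 2.67 on lysate means (adjusted p = 0.0227). Without WT early replicate 2 the early difference was -2.42 (adjusted p = 0.0501), and without WT early replicate 1 it was -2.69 (adjusted p = 0.0804).

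No conjugation enzyme was called between genotypes. By limma, 0 of 33 were called in early (0.0435% of all genes), 0 in late (0.0124%), 0 on lysate means (0.00621%) and 0 in the interaction of genotype and fraction (0.00621%), and voom on the inferred reads also called 0 in each. At an unadjusted p under 0.05 there were 2 members in early (6.65% of all genes), 8 in late (9.36%), 7 on lysate means (11.3%) and 1 in the interaction (2.85%). All 7 on lysate means were higher in cKO, where 6.09% of all genes were higher at that level, and all 7 were Gst or Mgst genes. Without WT early replicate 2 the adjusted early, late and interaction counts were also 0, and the unadjusted ones were 1 in early (6.31% of all genes), 8 in late (8.57%) and 2 in the interaction (3.06%). The lysate-mean count of 7 moved in both directions with the lysate left out, and fell most without WT lysate 2. The late count was 3 or 4 without WT late replicate 1 (4.96% of all genes), WT late replicate 2 (7.70%) or cKO late replicate 2 (6.51%). The early count was 5 without cKO early replicate 1 (7.95%) and 4 without WT early replicate 1 (3.66%), and the interaction count was 4 without cKO early replicate 1 (4.03%) and 5 without cKO late replicate 1 (7.77%). The late count rose without cKO late replicate 1. These unadjusted counts thus moved with single libraries.

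Gstk1, a kappa-class enzyme of mitochondria and peroxisomes, was at 25.1 and 19.9 (WT) and 28.5 and 24.8 TPM (cKO) in early polysomes, and 28.0 and 28.1 (WT) and 33.8 and 42.3 TPM (cKO) in late ones. Both cKO lysate means were above both WT ones, by 0.37 (SE 0.09, adjusted p = 0.359, limma). For Gstm5 the difference was 0.27 (SE 0.07, adjusted p = 0.359), and its early libraries stood at 274 to 278 TPM in WT and 335 to 337 TPM in cKO. Mgst1 differed by 0.29 (adjusted p = 0.374), Gsto1 by 0.29 (adjusted p = 0.395), Gstt3 by 0.24 (adjusted p = 0.374) and Gstp1 by 0.20 (adjusted p = 0.423). Mgst2, on 1 to 15 reads per library, differed by 0.60 (adjusted p = 0.387). The genotypes' lysate means did not overlap in any of these 7, but the 7 were picked by p on those same means. Other members, among them Gsta4, Gstm2 and Sult1c1, did not overlap either, and the share over all genes was not counted. None of the 7 held after adjustment. Gsto1 differed by 0.17 without cKO lysate 1. The family medians on lysate means were -0.09 for Ugt, 0.18 for Gst, 0.29 for Mgst and -0.05 for Sult, beside 0.00 for all genes. Several marker lists had medians above 0 in cKO on lysate means: 0.28 for microvillous cells, 0.20 for respiratory ciliated cells and 0.20 for Bowman's gland. At an unadjusted p under 0.05 in either direction were 2 of 5, 2 of 4 and 2 of 7 of their markers (limma, 11.3% of all genes). Not all markers were higher in cKO: 4 of 5, 3 of 4 and 4 of 7 were above 0. The Bowman's gland markers ran from -0.58 to 0.41. The erythroid gene Alas2 differed by 0.47. The summed microvillous level was 57.8 to 70.5 TPM in WT and 72.3 to 76.6 TPM in cKO in early libraries. In late ones it was 91.7 to 97.5 and 113 to 128 TPM. The ciliated sum, WT first, was 326 to 333.5 and 347 to 351 early, and 246 to 252 and 261 to 296.5 late. Neither sum overlapped between genotypes within a fraction. The Bowman's gland sum was 4188 to 7785 and 6002 to 7927 early and 10480 to 14940 and 14490 to 17150 late, with overlap. Alas2 was 31.3 to 46.7 and 47.0 to 54.5 early and 39.0 to 48.5 and 59.8 to 59.96 late, without overlap. Sustentacular markers had a median of -0.0024, immature neuron markers -0.18 and ensheathing glia markers -0.18, and no marker was called after adjustment. The part of these cells in the Gst and Mgst values was not tested. Ugt2a1, Sult1c1 and Gsta4 differed by -0.09, 0.08 and 0.31, with no adjusted p under 0.05.

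**Figure D4:**
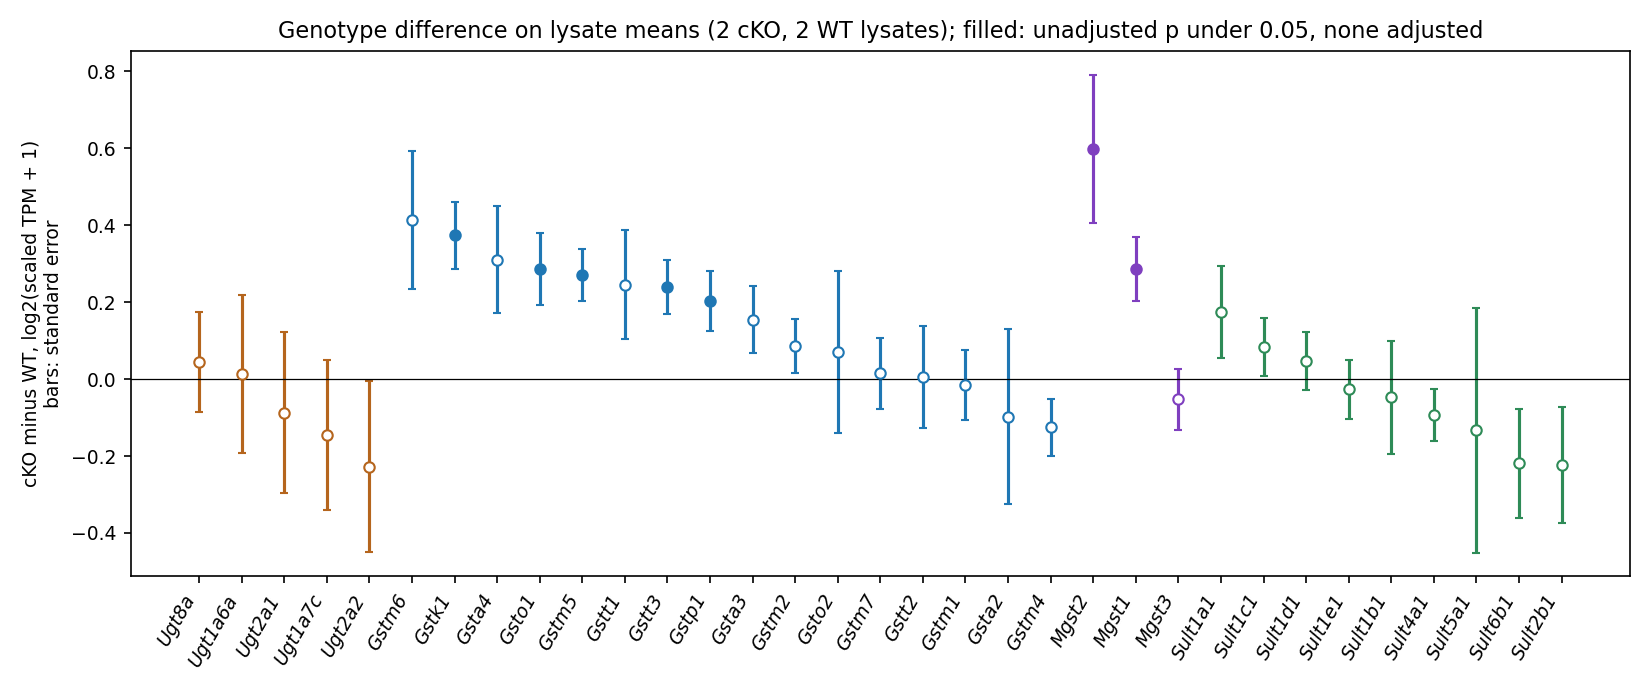
Difference of cKO from WT in log2(scaled TPM + 1), averaged over both fractions within a lysate (2 lysates per genotype), for the 33 tested members, with bars for the standard error and colours for family. Filled points, 7 in all and all above 0, had an unadjusted p under 0.05, and no member passed after adjustment.

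The late against early change was also compared between genotypes. In WT 16 of 33 members were called (54.8% of all genes) and in cKO 23 (58.1%). The 16 called in WT were called in cKO too, all in the same direction, and 7 were called in cKO but not in WT. Without WT early replicate 2 the WT count was 13 of 33, where 36.5% of all genes were called. The difference between genotypes itself, tested as the interaction, was called for no member, so the higher count in cKO is not shown to be a difference. The sign was the same in both genotypes for 30 of 33 members, a count that was not made over all genes. Sult1a1, named after its values were seen, was the 1 member with an unadjusted p under 0.05. It was at 5.27 and 6.08 (WT) and 3.99 and 5.16 TPM (cKO) in early polysomes, and 10.4 and 11.4 (WT) and 16.3 and 16.0 TPM (cKO) in late ones. As deposited, its cKO libraries were lower than WT in early and higher in late. After scaling the early libraries overlapped, with means of 5.74 (SD 0.63) in WT and 4.82 (SD 0.94) in cKO, on 26 to 40 inferred reads. The late minus early change was 0.73 in WT and 1.52 in cKO, and the interaction of 0.79 (SE 0.23) did not pass (adjusted p = 1.00, limma).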

How the data were processed

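RNA of early and late polysomes was measured in 8 libraries, grouped by sample title. The authors deposited 1 table of TPM for 21765 symbols, 1 column per library. Per the submitters' processing notes, FastQC, cutadapt, STAR, DESeq2 and build mm10 were used, with no roles given, and libraries were stranded per the labels' protocols. The annotation and counting method are not given in the sources used here. The Cre line is not reported here. TPM states no depth, but a gene's values moved in even steps, from which whole reads could be inferred for 19783 genes with signal in 2 or more libraries (100% came out whole to 0.001 of a read), with 1009 genes above 0 in 1 library only. On simulated libraries 98.8% of 19404 genes came back exactly.

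Median-ratio factors of 0.940 to 1.07 put the libraries on one TPM scale. The 16097 genes averaging 1 TPM or more as deposited were fitted on log2(scaled TPM + 1), the 4 groups together, with limma 3.58.1 in R 4.3.3 (empirical Bayes, mean-variance trend, two-sided, Benjamini-Hochberg over all genes, threshold 0.05). Genotype was also fitted on lysate means, because 1 lysate gave both of its libraries. In simulated data 200 of 16020 genes changed 3-fold between genotypes and another 200 between fractions, with no other difference set between groups. The test recovered 200 in the average late against early comparison (11 false calls). For genotype it recovered 194 (early), 195 (late) and 200 (lysate means), with 4, 16 and 25 false calls. No interaction was put in, and 0 genes were called there. Changes smaller than 3-fold were not simulated, nor was the wide difference between fractions seen in the real data.

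Positions and coding lengths came from GENCODE M21 on GRCm38 (APPRIS principal transcript, stop codon not counted), which held 96.0% of all symbols and all 54 members. It may not be the authors' annotation. The early and late library of a lysate are paired by lysate name, and their deviations from group means correlated at 0.0863 in WT and 0.0502 in cKO across genes. No label says that a number pairs WT with cKO lysates, although the library names of a number run consecutively.

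The members and lists were chosen with earlier results of these data known. Values in every library are given for Ugt2a1, Sult1c1 and Gsta4, the up to 6 most abundant members of each family, the 2 highest and 2 lowest changes, and up to 3 abundant genes per list by range or change. Others that appear with values in every library or with tests were named after their values were seen. Alternatives were TPM as deposited, quantile normalization, a pseudocount of 0.1, no filter on low values, the replicate block, voom on inferred reads, and leaving out each library or lysate. Plots used matplotlib 3.10.9.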

Additional observations from a re-analysis of the deposited data

How the results depend on the processing

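The average late against early comparison called 20 to 24 members when each library was left out (62.0% to 67.0% of all genes in those fits), against 24 with all 8, the WT comparison 13 to 17 (36.5% to 55.7%; 16 with all) and the cKO comparison 16 to 23 (42.6% to 56.4%; 23 with all). Genotype and interaction comparisons called 0 under every alternative run. With the replicate block (lysate) 25 members were called, 16 higher and 9 lower, Ugt2a2 being added, and it changed no other call among the members on average. WT and cKO of the same number share that number and a consecutive run of library numbers in their library names. What that run stands for is not given in the labels. Their deviations correlated at 0.332 in early and 0.143 in late. With the replicate number as the block on lysate means 0 members and 85 genes were called (1 without it). In that fit 10 members had an unadjusted p under 0.05 (21.2% of all genes). With TPM as deposited 18 were called higher and 7 lower, and the median of all genes was 0.09. Signs reversed in 4 cases, all of changes near 0: Gstm2 was 0.067 with TPM as deposited and 0.27 with quantile normalization, Gstt2 ran from -0.0064 (without cKO late replicate 2) to 0.311 (without cKO late replicate 1), and Ugt8a from -0.056 (without WT early replicate 1) to 0.172 (without WT early replicate 2). The cause was not tested. Calls of Gstk1, Gstm6, Gstm7, Gstt1 and Sult2b1 were lost in 4 to 6 of 14 alternatives. The libraries whose omission ended them were WT early replicate 2 for Gstk1, Gstm6 and Sult2b1 (adjusted p = 0.0705 to 0.102), WT late replicate 1 for Gstk1, Gstm6, Gstt1 and Sult2b1 (0.0541 to 0.0827), and WT late replicate 2 for Gstk1, Gstm7 and Gstt1 (0.0514 to 0.0676). The others were cKO early replicate 1 for Gstm6, Gstm7, Gstt1 and Sult2b1 (0.0550 to 0.0810), cKO early replicate 2 for Gstk1 (0.0911), cKO late replicate 1 for Gstt1 and Sult2b1 (0.0679 and 0.0702), cKO late replicate 2 for Gstk1, Gstm6 and Gstm7 (0.0521 to 0.0944), and WT early replicate 1 for Gstm7 (0.0629). Calls were gained by Gstp1 without cKO early replicate 1 (0.29) and with TPM as deposited (0.30), by Sult6b1 with TPM as deposited (0.33) and without cKO late replicate 2, by Sult1b1 without WT early replicate 1 (-0.32), and by Ugt2a2 in 6 alternatives. The late Mex3a difference did not pass without either WT late library (0.0901 and 0.0945), nor did that on lysate means with no filter (0.165). Ugt1a6a stood at 1.91 with voom, against 0.90, and the genotype difference of Mgst2 at 1.20, against 0.60. Members under about 10 reads per library, such as Mgst2, are limited by depth.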
